A study of Mus musculus with 2 samples.

Results

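The Hedgehog pathway genes described here are 9 genes that encode 2 ligands (Shh and Ihh), the receptor Ptch1, the signal transducer Smo, the co-receptor Gas1, the ligand-binding inhibitor Hhip and the transcription factors Gli1, Gli2 and Gli3. They were taken by name, and every probe set that the array annotation assigned to 1 of them alone was used, which gave 22 probe sets. They belong to 18193 genes measured. Cells of PGK12.1, a female mouse embryonic stem cell line, were compared after 15 days of differentiation as embryoid bodies (cell aggregates in which several germ layer derivatives form) with the same line undifferentiated at day 0. The line came from blastocysts with a 129 mother and a father that was an F1 of 129 and PGK, and both groups were at passage 14 to 18. Both started from stem cells kept with leukemia inhibitory factor at 1000 U/ml on mouse embryonic fibroblast feeders, and the feeders were depleted by adhesion to gelatin for 30 min. Each condition was measured on 1 Affymetrix array, from 1 line, so no value has a replicate error, no test between conditions was possible, and each difference is described by its size alone.

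In Hedgehog signalling a secreted ligand binds Patched, which relieves Smoothened from inhibition at the primary cilium, and GLI proteins then change the expression of target genes. Ptch1, Hhip and Gli1 are themselves classical targets and are used as readouts of the pathway, while in mouse embryos the co-receptor genes Gas1, Cdon and Boc are known to be lowered by it. In the early mouse embryo Ihh is known from visceral endoderm and Shh from notochord, floor plate and gut endoderm, and mesenchyme is a main responding tissue. Ligand expression, co-receptors and GLI factors can therefore be followed separately in the array data.

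Of the 9 Hedgehog genes, Gas1 and Gli3 were at least 2-fold higher at day 15, Gli1 was at least 2-fold lower, and the other 6 lay within 2-fold. The share at least 2-fold higher was 22.2% of the Hedgehog genes, against 12.8% of all genes measured and 16.5% of the genes above the expression filter. The share at least 2-fold lower was 11.1% of the Hedgehog genes, against 7.56% of all genes measured and 8.41% of those above the filter. With 9 genes, 1 gene is 11.1%, so both shares lay within 1 gene of the background and the counts are not a result about the pathway as a group. The median log2 difference was -0.19 over the Hedgehog genes and -0.02 over all genes measured. Quantile normalization gave -0.22 for the Hedgehog genes and scaling on the hybridization controls -0.50, but the median was 0.25 when all probe sets of a gene were averaged. What the data hold is therefore in the single genes.

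The signals are linear intensities in arbitrary units that had been scaled before deposit to a trimmed mean of 250 on both arrays. Log2 differences are of log2(signal + 16), day 15 minus undifferentiated, which understates the differences of dim genes, and folds are ratios of the signals themselves. Counts of genes past 2-fold are of log2 differences of at least 1 in size. The brightest of 15 control probe sets for bacterial transcripts without target RNA read 35.6, on the undifferentiated array, and the next highest reading was 23.0. For a dimmer signal under 35.6 the fold is a bound, written as at least the ratio of the brighter signal to 35.6, and no fold is written for a pair of signals under 35.6. A dim gene can thus be counted past 2-fold on the log2 scale while its bound is under 2, and each such gene is named beside its count. The reverse occurs too, since Bbs9 (2.01-fold lower), Amn (2.14-fold lower) and Kdr (2.075-fold higher) are counted as within 2-fold in the lists below. Over the 5157 genes with several probe sets above the filter, the SD of the log2 difference within a gene was 0.53, which serves here as the only yardstick and leaves out variation between cultures. Probe sets for the 3' and 5' ends of Actb stood in a ratio of 1.72 at day 15 and 2.34 in undifferentiated cells, and those of Gapdh in a ratio of 0.817 at day 15 and 0.815 in undifferentiated cells.

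Upstream windows of 3 genes are shown, those of the higher genes Gas1 and Gli3 and that of Ptch1, the receptor gene that GLI factors control. Each holds the 250 bases before the annotated gene start in RefSeq (GRCm38.p6), written 5′ to 3′ on the gene's strand, with GGGCGG or its complement CCGCCC, the letters of a GC box, in capitals.
Gas1, chr13:60177536-60177785 (minus strand): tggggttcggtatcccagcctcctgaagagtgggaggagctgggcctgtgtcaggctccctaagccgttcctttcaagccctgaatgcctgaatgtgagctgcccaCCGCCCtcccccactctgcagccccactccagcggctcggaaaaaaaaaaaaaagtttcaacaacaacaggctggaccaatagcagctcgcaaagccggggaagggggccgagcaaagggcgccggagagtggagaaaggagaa
Gli3, chr13:15463473-15463722 (plus strand): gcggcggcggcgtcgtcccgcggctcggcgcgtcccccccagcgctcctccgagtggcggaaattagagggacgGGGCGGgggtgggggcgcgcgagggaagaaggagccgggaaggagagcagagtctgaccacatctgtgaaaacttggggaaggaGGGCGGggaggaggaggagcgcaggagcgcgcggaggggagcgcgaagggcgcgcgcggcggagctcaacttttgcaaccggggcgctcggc
Ptch1, chr13:63565736-63565985 (minus strand): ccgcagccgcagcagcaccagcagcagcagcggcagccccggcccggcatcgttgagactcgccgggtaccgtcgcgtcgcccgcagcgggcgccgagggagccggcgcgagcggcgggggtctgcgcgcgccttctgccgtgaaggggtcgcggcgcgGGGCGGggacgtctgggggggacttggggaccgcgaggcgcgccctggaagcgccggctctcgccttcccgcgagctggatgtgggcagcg
Windows were found for 7 of the 9 genes. The letters GACCACCCA, a consensus for GLI binding, or their complement TGGGTGGTC occurred in none of the 7 windows and in 0.225% of 32841 windows of the same length, and a missing match says only that these letters are not in this window. GGGCGG on either strand occurred once in the windows of Gas1, Ptch1 and Gli2 and 2 times in those of Gli3, Ihh and Hhip, was not found in that of Smo, and was present in 32.7% of all windows. No match of one motif overlapped the other. The Gas1 window had 10 CG dinucleotides, more than 62.2% of all windows, whereas the Gli3 window had 34 (more than 96.5%) and the Ptch1 window 41 (more than 98.9%). The median over all windows was 6. These letters describe the windows alone, and no binding or methylation was measured.

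Both ligand genes were dim on both arrays. Shh, the ligand of notochord and floor plate, read 65.9 at day 15 and 81.9 in undifferentiated cells on its brighter probe set (1436869_at), a log2 difference of -0.26. Its other probe set (1427571_at) read 4.1 at day 15 and 0.9 in undifferentiated cells. The probe sets of Shh thus pointed in opposite directions, and the larger of the 2 differences was under the spread between probe sets of 1 gene. Ihh, which acts in endoderm, yolk sac and growing cartilage, had 1 probe set (1450704_at), which read 40.0 at day 15 and 18.9 in undifferentiated cells (at least 1.12-fold higher, log2 difference 0.68). Ihh lay below the expression filter, a mean signal of about 36.5, and the other 8 Hedgehog genes passed it. The Ihh difference was slightly over the spread of 0.53, with the undifferentiated signal below the controls without target.

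Markers of tissues known to make these ligands differed among themselves in direction and size. Endoderm markers, definitive and visceral, had 7 of 18 measured genes (38.9%) past 2-fold upward at day 15 and 1 (5.56%) downward. Over all genes measured the shares were 12.8% and 7.56%. On the log2 scale 10 lay within 2-fold, among them Hnf4a, Foxa2, Sox17 and Sox7. The summed signal was 4740 at day 15 and 2932 in undifferentiated cells. Most of the undifferentiated sum came from Rhox5, the 1 counted downward (693.9 at day 15 and 2311.4 in undifferentiated cells). The 4 with the largest difference were the fetal serum protein gene Afp (at least 24.4-fold higher), the endoderm regulator Gata6 (at least 23.1-fold), the transthyretin gene Ttr (at least 15.9-fold) and the endocytic adaptor gene Dab2 (16.3-fold). Notochord and floor plate markers had 2 of 9 measured genes (22.2%) past 2-fold upward on the log2 scale and 0 downward. Both of the 2 lay below the filter, with bounds of only 1.25-fold (Nog) and 1.01-fold (Slit1). The summed signal was 467 at day 15 and 626 in undifferentiated cells. The 3 of them above the filter were the guidance gene Ntn1 (log2 difference -0.78), the BMP antagonist gene Chrd (-0.45) and the endoderm and midline regulator Foxa2 (0.21). Cartilage and growth plate markers had 4 of 13 (30.8%) past 2-fold upward and 1 (7.69%) downward on the log2 scale. The other 8 lay within 2-fold, among them Sox9 (62.2 at day 15 and 58.1 in undifferentiated cells), Col2a1 (94.5 and 89.9), Acan (42.2 and 50.5) and Col10a1 (1.7 and 1.9). Above the filter the largest difference was of the collagen gene Col11a1 (27.9-fold higher), then the hormone receptor gene Pth1r (at least 2.92-fold higher) and Sox6 (2.47-fold higher). Sox5, counted upward but below the filter, read 96.8 at day 15 and 5.8 in undifferentiated cells (at least 2.72-fold higher). Col9a1, the 1 counted downward, had a bound of 1.79-fold lower. The notochord and cartilage shares rest on few genes. The relation of these lists to the ligand signals was not tested.

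Ptch1, the Hedgehog receptor and a target of its own pathway, was slightly lower at day 15. Its bright probe set (1428853_at) read 929.9 at day 15 and 1311.2 in undifferentiated cells, which is 1.41-fold lower and a log2 difference of -0.49. That difference was under the SD of 0.53 between probe sets of 1 gene. The other 2 probe sets of Ptch1 gave 1.9 and 5.1 at day 15 and 8.4 and 4.5 in undifferentiated cells, all below the controls without target, so the gene rests on 1 probe set. Other scalings kept the sign of Ptch1, at -0.46 after quantile normalization and -0.87 after scaling on the hybridization controls.

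Smo, the seven-pass membrane protein gene that Patched holds in check, was higher at day 15 but fell short of 2-fold. The probe set 1427049_s_at read 517.9 at day 15 and 264.9 in undifferentiated cells (1.96-fold, log2 difference 0.93), and 1427048_at read 363.8 at day 15 and 217.6 in undifferentiated cells (1.67-fold, 0.70). Both derive from the same source sequence and are not independent of each other. Another probe set (1442215_at) read 6.6 at day 15 and 1.0 in undifferentiated cells, below the controls. All 3 pointed upward, and the log2 difference was 0.55 with scaling on the hybridization controls.

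Gas1 had by far the largest difference of the 9 Hedgehog genes. Gas1 encodes a surface protein, anchored in the membrane by a lipid, that binds Hedgehog ligands and helps present them to Patched, and it was first known as a gene of growth-arrested fibroblasts. Probe set 1416855_at read 2101.0 at day 15 and 35.9 in undifferentiated cells (58.5-fold higher, log2 difference 5.35). Probe set 1448494_at read 753.1 at day 15 and 37.9 in undifferentiated cells (19.9-fold, 3.83). Probe set 1456322_at read 73.4 at day 15 and 37.1 in undifferentiated cells (1.98-fold, 0.75).

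The 3 probe sets of Gas1 agreed in direction and had nearly the same undifferentiated signal, just above the controls without target, but their differences were spread far more widely than the SD of 0.53 between probe sets. The fold therefore depends on the probe set, and with all 3 averaged the log2 difference was 3.31. By its brightest probe set Gas1 ranked 40 from the top among the 18193 genes in log2 difference. In bulk RNA a larger share of cells that express a gene and more RNA per cell cannot be told apart.

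Markers of mesenchyme and fibroblasts, cells that express Gas1 in the embryo, moved in the same direction. At day 15, 20 of 21 measured markers (95.2%) passed 2-fold upward and 0 downward, against 12.8% and 7.56% of all genes measured. Their median log2 difference was 4.49. Their summed signal was 83264 at day 15 and 8166 in undifferentiated cells, and 0 of the 21 lay below the control bound at day 15, against 11 in undifferentiated cells. The largest differences were of Col1a1 (at least 217-fold higher), Col3a1 (267-fold), the mesenchymal cadherin gene Cdh11 (at least 152-fold) and the matrix proteoglycan gene Lum (at least 74.7-fold). Feeder fibroblasts make many of these transcripts too. The part of such cells in the Gas1 difference was not tested.

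**Figure D1:**
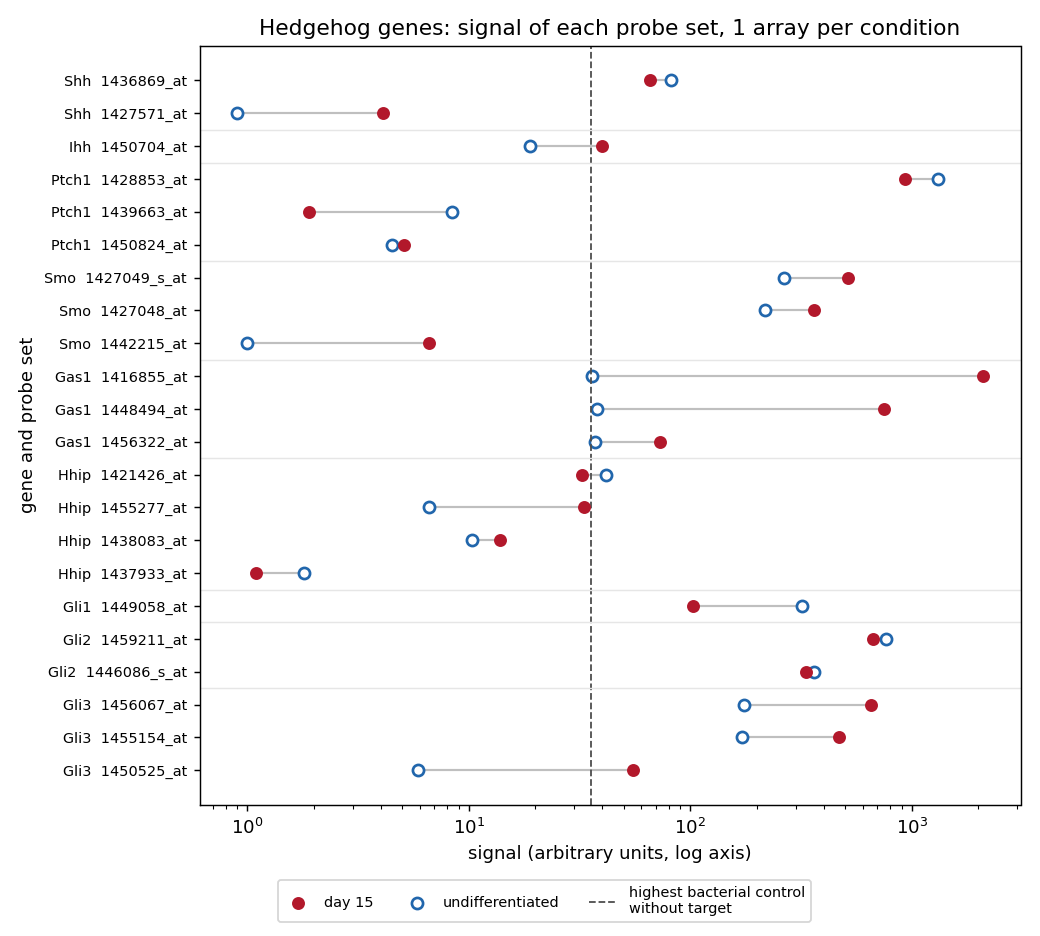
Signal of each of the 22 probe sets of the 9 Hedgehog genes (log axis, arbitrary units), with day 15 as filled red points and undifferentiated cells as open blue points, 1 array each; the dashed line is the highest control without target (35.6). Gas1 shows 2 long lines and 1 short line that all start near the dashed line, Gli3 lies to the right and Gli1 to the left at day 15, and 7 probe sets lie below the dashed line on both arrays.

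Hhip, which encodes a membrane protein that binds and sequesters Hedgehog ligands and is a target of the pathway, stayed near the controls on both arrays. Its brightest probe set (1421426_at) read 32.3 at day 15 and 41.6 in undifferentiated cells, a log2 difference of -0.25. The other 3 probe sets read 33.2, 13.8 and 1.1 at day 15 against 6.6, 10.3 and 1.8 in undifferentiated cells, all below 35.6. Hhip passed the filter by a small margin, with a mean of 36.7 in signal units. With the mean over probe sets the sign of Hhip turned, to 0.25, so no direction can be given for it.

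The 3 GLI factor genes differed from each other. Gli1, an activator whose transcription depends on Hedgehog signalling, was lower at day 15, with 103.1 against 320.9 in undifferentiated cells on its only probe set (1449058_at). This is 3.11-fold lower, a log2 difference of -1.50, and it ranked 351 from the bottom among 18193 genes. It was -1.75 with quantile normalization and -1.83 with scaling on the hybridization controls, while a pseudocount of 64 gave -1.20. A single probe set carries this value, and no second one was at hand to compare it with.

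Gli2, the main transducing activator in mouse embryos, was nearly level. Probe set 1459211_at read 665.7 at day 15 and 761.8 in undifferentiated cells (1.14-fold lower, log2 difference -0.19), and 1446086_s_at read 334.1 at day 15 and 361.2 in undifferentiated cells (1.08-fold lower, -0.11). Both come from the same source sequence. These differences lay well inside the spread between probe sets of 1 gene.

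Gli3, which in the absence of ligand is processed into the main repressor of the pathway, was higher at day 15 on every probe set. Probe set 1456067_at read 654.6 at day 15 and 174.7 in undifferentiated cells (3.75-fold higher, log2 difference 1.81). Probe set 1455154_at read 471.3 at day 15 and 171.7 in undifferentiated cells (2.74-fold higher, 1.38). Probe set 1450525_at read 55.4 at day 15 and 5.9 in undifferentiated cells (at least 1.56-fold higher, 1.70). These 3 probe sets come from 3 source sequences, and as reported they agreed within the SD of 0.53. That agreement depends on the pseudocount, because 1450525_at lies below the filter with a dim undifferentiated signal. With a pseudocount of 1, 1450525_at gave 3.03, 1455154_at 1.45 and 1456067_at 1.9. With a pseudocount of 64 they gave 0.77, 1.18 and 1.59, in the same order. The direction was upward throughout, and 1455154_at and 1456067_at stayed past 2-fold with both pseudocounts. The value for Gli3 was 1.43 with scaling on the hybridization controls and ranked 997 from the top as deposited. Gli3 and Gli1 thus moved in opposite directions, with a gap of 3.31 between their log2 differences.

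**Figure D2:**
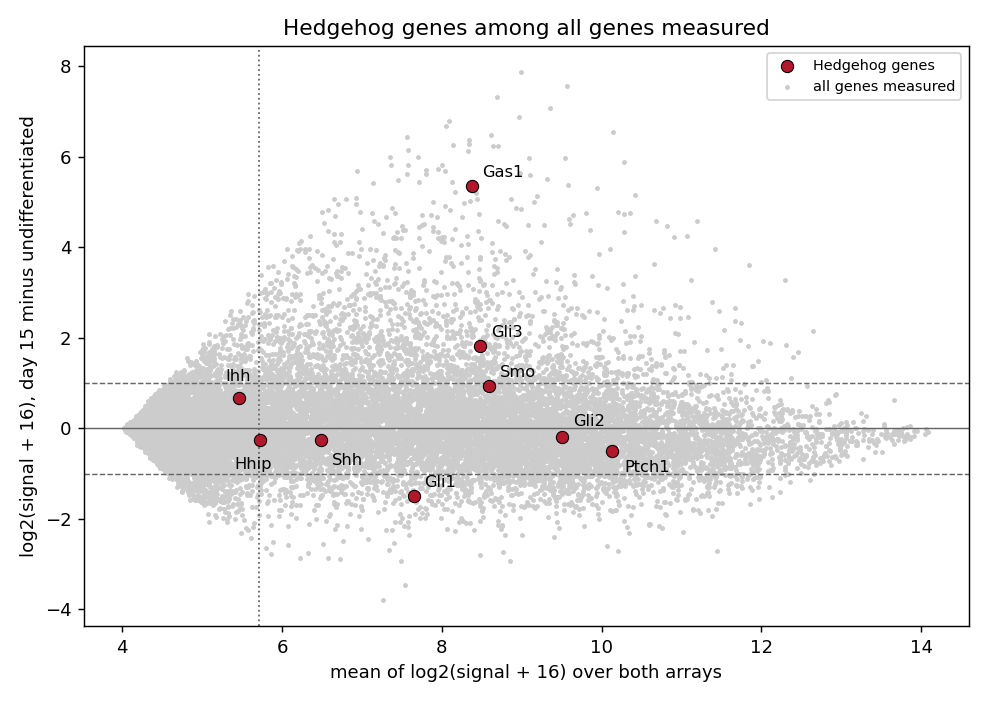
The 9 Hedgehog genes (red) among all 18193 genes measured (grey), by mean log2(signal + 16) over both arrays on the horizontal axis and the log2 difference of day 15 minus undifferentiated on the vertical axis; dashed lines mark 2-fold and the dotted line the expression filter. Gas1 (5.35) and Gli3 (1.81) lie above the upper dashed line and Gli1 (-1.50) below the lower one, while Shh, Ptch1, Hhip, Gli2, Smo and Ihh lie between them inside the bulk of the genes.

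Genes that act beside the 9 at the cell surface were past 2-fold upward more often than downward. The list holds the further ligand gene Dhh, the genes for ligand acylation and release, co-receptors and heparan sulphate carriers. Of 15 measured, 7 (46.7%) passed 2-fold upward on the log2 scale at day 15, against 12.8% of all genes measured, and 0 passed it downward, against 7.56%. The list was chosen with earlier results of these data known, so its share is no independent evidence of an excess. The count includes Dhh, below the filter, with a bound of only 1.46-fold (51.8 at day 15 and 7.1 in undifferentiated cells), and without it 6 remain. The list had a median log2 difference of 0.16, which scaling on the hybridization controls turned to -0.22. The largest difference was of the glypican gene Gpc6, with 554.3 at day 15 and 26.3 in undifferentiated cells (at least 15.6-fold higher). The ligand release gene Disp1 was 3.37-fold higher by its brighter probe set, and its other one read 106.3 at day 15 and 44.0 in undifferentiated cells (2.42-fold higher).

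The co-receptor genes Boc and Cdon were higher together with Gas1. Boc, an immunoglobulin superfamily co-receptor, read 227.2 at day 15 and 4.2 in undifferentiated cells (at least 6.38-fold higher), and another probe set read 134.6 at day 15 and 1.5 in undifferentiated cells. The last probe set of Boc stayed below the controls, at 20.6 at day 15 and 3.1 in undifferentiated cells. Cdon, its close relative, read 625.8 at day 15 and 104.4 in undifferentiated cells (5.99-fold higher), but its dimmer probe set, below the filter, read 9.0 at day 15 and 61.9 in undifferentiated cells. By the probe set that represents each gene, the log2 differences of Gas1, Boc and Cdon were 5.35, 3.59 and 2.41. Lrp2, another ligand-binding gene of the list, went the other way, with 95.7 at day 15 and 151.6 in undifferentiated cells (1.58-fold lower). Its probe sets above the filter were split, 1 higher and 1 lower. Above the filter, 6 genes of this list were at least 2-fold higher, and 2 were when the probe sets of each gene were averaged.

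Most genes of intracellular transduction lay within 2-fold. Of 26 measured inhibitors, kinases, ubiquitin ligase parts and ciliary adaptors, 5 (19.2%) passed 2-fold upward, against 12.8% of all genes measured and 16.5% of those above the filter. Downward 1 passed it (3.85%), against 7.56% of all genes, and 20 lay within it. The median log2 difference was 0.51 (0.15 with scaling on the hybridization controls). Dyrk2, a kinase gene reported to act on GLI2, was 7.14-fold higher (1264.9 at day 15 and 177.2 in undifferentiated cells). Prkar1a, the regulatory subunit of the protein kinase A that restrains GLI activation, was 2.34-fold higher, and Gsk3b, a kinase gene of the same step, was 2.19-fold higher. Evc, which encodes a partner of Smoothened in the cilium, was 2.59-fold lower (44.3 at day 15 and 114.8 in undifferentiated cells). With scaling on the hybridization controls the counts were 2 higher and 2 lower.

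Primary cilium genes mostly lay within 2-fold, as did most genes on the arrays. Of 39 measured genes of intraflagellar transport, the transition zone and the BBSome (a cargo complex of the cilium), 3 (7.69%) were at least 2-fold higher and 1 (2.56%) was lower, against 12.8% and 7.56% of all genes measured, and 35 lay within 2-fold. The median log2 difference was 0.11, and it turned to -0.17 with quantile normalization and to -0.27 with scaling on the hybridization controls, where 1 gene was higher and 6 lower. Ttc8, a BBSome subunit gene, was 4.47-fold higher (668.7 at day 15 and 149.7 in undifferentiated cells), the ciliary phosphatase gene Inpp5e 2.84-fold and the transport gene Ift122 2.50-fold higher. Bbs2, another BBSome subunit gene, was 2.35-fold lower (98.2 at day 15 and 230.4 in undifferentiated cells).

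Among 35 measured genes reported elsewhere as Hedgehog targets, 13 (37.1%) passed 2-fold upward on the log2 scale and 3 (8.57%) downward, against 12.8% and 7.56% of all genes measured. With the control bound, 11 of the 13 and 2 of the 3 reached 2-fold. Those 2 were Ccne1 (3.77-fold lower) and Mycn (3.54-fold lower). Foxf1, among the 11, had another probe set above the filter that pointed downward (47.6 at day 15 and 78.9 in undifferentiated cells). Osr1 lay below the controls on both arrays, and the bounds of Bmp2 (1.29-fold higher) and Pax1 (1.05-fold lower) fell short. The median log2 difference was 0.49 (0.26 with scaling on the hybridization controls). The 4 with the largest differences were the growth factor gene Igf2 (64.9-fold higher), the mesenchymal transcription factor gene Hand2 (at least 50.0-fold), the cyclin gene Ccnd2 (21.3-fold) and the nuclear receptor gene Nr2f1 (at least 12.0-fold). All 4 answer other pathways as well, and the list was drawn up with values of Igf2, Hand2 and Ccnd2 on these arrays known, so their direction is no independent evidence. Beside them Ptch1 (-0.49), Gli1 (-1.50) and Hhip (-0.25), the classical readouts, had log2 differences below 0 by their brightest probe sets. Of these only Gli1 passed 2-fold, on a single probe set, and the difference of Ptch1 was under the SD of 0.53. That of Hhip turned above 0 when probe sets were averaged, so a joint fall of the readouts is not shown.

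**Figure D3:**
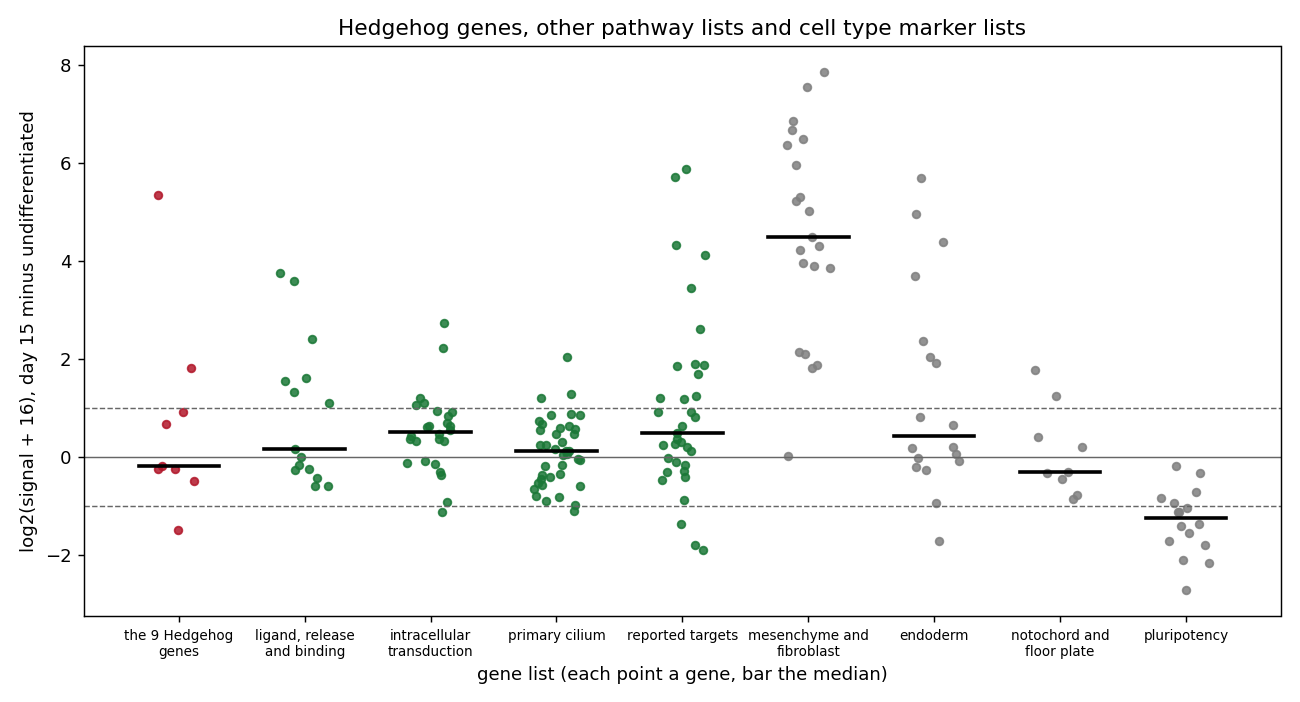
Log2 differences of day 15 minus undifferentiated for the 9 Hedgehog genes (red), 4 lists of other pathway genes (green) and 4 marker lists (grey), each point a gene by its brightest probe set and each bar the median; dashed lines mark 2-fold. The mesenchyme and fibroblast markers stand highest (median 4.49) and the pluripotency markers lowest (-1.25), while the Hedgehog genes spread from Gli1 (-1.50) to Gas1 (5.35) around a median of -0.19, and the cilium median (0.11) falls below 0 with both other scalings.

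The condition labels were checked against markers. Of 16 pluripotency markers, 11 (68.8%) were at least 2-fold lower at day 15 and 0 higher, against 7.56% and 12.8% of all genes measured. The summed signal was 37764 at day 15 and 74412 in undifferentiated cells, so these transcripts were still well measured at day 15. Dppa3 was 7.22-fold, Gdf3 4.61-fold, Lin28a 4.37-fold and Sall4 3.51-fold lower. The 5 within 2-fold were Nanog (1.93-fold lower), Tcl1 (1.81-fold), Sox2 (1.65-fold), Dppa5a (1.26-fold) and Klf4 (1.14-fold). Neural progenitor and neural tube markers, a tissue that Shh patterns, had 3 of 13 (23.1%) at least 2-fold higher and 1 (7.69%) lower. Irx3 (2.95-fold), Sox1 (2.89-fold) and Nes (2.28-fold, with another probe set pointing the other way) were higher and Neurod1 was 3.47-fold lower. Endothelial and blood island markers, where Ihh acts in the yolk sac, had 2 of 12 (16.7%) past 2-fold upward on the log2 scale and 3 (25%) downward. Flt1 was at least 3.08-fold higher and Cdh5 had a bound of only 1.28-fold. Esam (3.29-fold), Pecam1 (2.20-fold) and Gata1 (at least 2.01-fold) were lower. The neural and endothelial shares rest on few genes, and the endothelial share upward was close to that of all genes. The part of these marker differences in the value of Gli1 was not tested.

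The calls of Gas1, Gli3 and Gli1 held in every processing in which each gene was followed. The log2 difference ranged from 3.31 to 5.83 for Gas1, from 1.43 to 1.90 for Gli3 and from -1.83 to -1.20 for Gli1. Smo stayed between 0.55 and 0.96 and Ptch1 between -0.87 and -0.30, all short of 2-fold. Ihh passed 2-fold in 1 of 6 alternatives, at 1.04 with a pseudocount of 1.

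**Figure D4:**
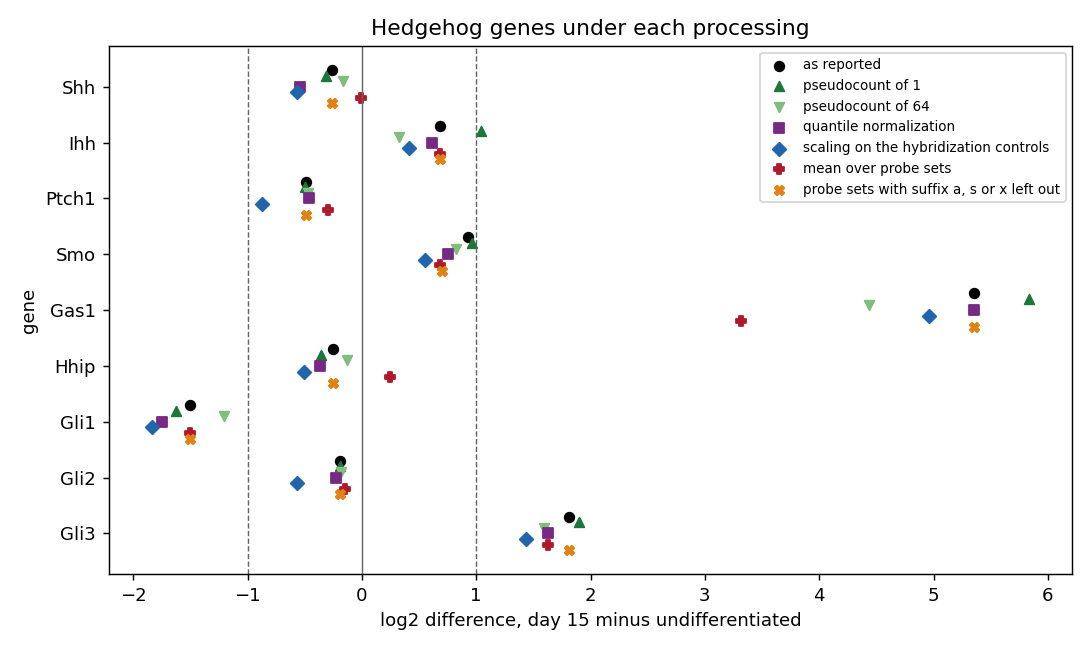
Log2 difference of day 15 minus undifferentiated for each Hedgehog gene as reported (black circles) and under 6 other processings (coloured symbols); dashed lines mark 2-fold. Gas1 and Gli3 stay right of the upper line and Gli1 left of the lower line throughout, Hhip lies on both sides of 0, and Gas1 has the widest range (3.31 to 5.83).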

How the data were processed

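Total RNA of 1 sample per condition was hybridised to Affymetrix mouse arrays after labelling as biotinylated cRNA, per the labels' protocols. The authors deposited linear signal intensities of 45101 probe sets on each array. For the summarising software, the sources used here give no name, and the table holds no detection calls. With 2% of probe sets trimmed at either end, both arrays averaged 250, so the intensities were already scaled. The number of arrays limits the precision, and no depth applies.

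After 64 control probe sets were set aside, 34945 named 1 gene in the platform annotation, 932 named several and 9160 were not listed. Symbols were updated through the RefSeq table of GRCm38.p6. A gene was represented by its probe set with the highest mean log2(signal + 16). The filter on mean expression, the median of all probe sets, was passed by 11960 of 18193 genes. It set the background shares above the filter, the probe sets behind the SD within a gene and the genes named from each list by the rule below. All 9 Hedgehog genes were kept whatever their level. Genes were called by a size of 2-fold, without a test. Named by rule were all 9 members and, of each other list, up to 4 genes above the filter with the largest absolute difference. Any other gene named from a list was chosen after its values were seen. These include genes with a bound under 2, genes named as within 2-fold, genes below the filter and genes named for the opposite direction. Members and lists were chosen with earlier results of these data known, so their shares beside the background are no independent evidence. The lists were those of ligand, release and binding genes, intracellular transduction, primary cilium, reported targets, endoderm, notochord and floor plate, mesenchyme, pluripotency, cartilage, neural and endothelial markers. The control bound of 35.6 was chosen after the data were seen. The calling code was tested on simulated data. Python 3.11.15, numpy 2.4.6 and pandas 2.3.3 were used.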

Additional observations from a re-analysis of the deposited data

Results flagged for a closer look

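Control transcripts outside the comparison differed between the arrays. The 6 probe sets for the bacterial lys transcript read up to 11559.9 at day 15 and at most 15.3 in undifferentiated cells. The 6 for the bacterial dap transcript read at most 18.1 at day 15 and up to 15243.2 in undifferentiated cells. These transcripts are commonly added to RNA before labelling, no label mentions them, and their relation to the values of the Hedgehog genes was not tested.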

How the results depend on the processing

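The alternatives were pseudocounts of 1 and 64, quantile normalization, scaling on 18 hybridization controls, the mean over probe sets, omission of those marked a, s or x, no filter and a filter at the 75th percentile; the filter at the median applied to the members and the probe set with the largest absolute difference were added after seeing the data. The number of Hedgehog genes at least 2-fold higher was 2 in each setting but the pseudocount of 1, where Ihh made it 3. The setting without a filter repeats the reported counts and median of the Hedgehog genes by design, since all 9 were kept, and tests only the lists. The number at least 2-fold lower was 1 except with the filter at the 75th percentile, which keeps 5 of the 9 genes, leaves out Gli1 and gives 0. The median over the Hedgehog genes was 0.93 with that filter, 0.25 with the mean over probe sets and between -0.50 and -0.13 in the other settings; the first follows from the genes left out. Scaling on the hybridization controls moved the median of all genes to -0.27 and changed the background to 8.50% higher and 15.2% lower, and quantile normalization changed it to 11.0% and 9.76%. No called Hedgehog gene changed sign. Over the Hedgehog genes, their probe sets and the 4 pathway lists, 33 of 288 alternative values moved by more than the SD of 0.53, or by more than 1.5 times for counts. Signals near 35.6 limit what can be read for Shh, Ihh, Hhip and the undifferentiated level of Gas1. No paired analysis was possible because each condition has 1 array.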
